A study of Mus musculus with 16 samples.

Results

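Circular RNAs (circRNAs) of 5 genes for LIM domain proteins, Fhl2, Pdlim5, Ablim1, Ablim3 and Lims1, are described here in mouse hearts. All circRNAs whose host gene symbol was one of these were taken, which gave 131 of the 68854 circRNAs listed. Of the 131, 86 had a count in at least 1 library, out of 40381 such circRNAs in all. The 5 genes were selected on the back-splice counts of this table, with their levels and group differences in view, so both are given as a description. No p-value of theirs is printed, and calls from the fit over all features are only counted, beside the share of all features called.

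The hearts came from male C57BL/6 mice in 4 groups. Sham mice had no infarction, and MIRI (myocardial ischaemia and reperfusion injury) mice had the left anterior descending coronary artery tied for 30 min and then released for 1 week. MIRI+AICAR and MIRI+Compound C mice had the same injury with AICAR, an activator of the energy-sensing kinase AMPK, or with Compound C, an inhibitor of that kinase, and the labels used here give no dose or route. Sequencing covered 3 libraries each of Sham and MIRI and 5 libraries of either treated group, 16 in all. The labels plan 8 mice a group and do not say how mice became libraries or whether each replicate is its own animal, so the spread between libraries that enters every p-value may be technical.

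A LIM domain is a module of paired zinc fingers that binds other proteins, and heart muscle uses LIM proteins to build and sense its contractile lattice. FHL2 consists almost wholly of LIM domains and binds titin in the sarcomere. PDLIM5 joins a PDZ domain, which binds α-actinin at the Z-disc, to LIM domains that bind protein kinases. ABLIM1 and ABLIM3 carry LIM domains at one end and an actin-binding villin headpiece at the other, and LIMS1 (PINCH1) holds integrin-linked kinase and parvin together at cell adhesions. A circRNA forms when the end of an exon is spliced back to the start of the same or an earlier exon, and only reads across that back-splice junction were counted. Each circRNA has 1 such junction, so its count does not grow with its length.

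Libraries held 119948 to 240889 back-splice counts, and the 5 genes together made up 0.642% to 1.13% of each. Levels are given as CPM, library-scaled counts (TMM) over the scaled total, with separate totals for circRNAs and for sums over a host gene, so CPM values of a circRNA and of its gene are not on exactly the same scale. The label gives cardiac muscle cell but describes no sort. Of 8 cardiac muscle markers, 7 were measured, and their summed level was 13060 to 22010 CPM. A pair of libraries stood apart: a platelet and megakaryocyte list (4 of 6 measured, Itga2b and Gp1bb at 0 throughout) summed to 14870 CPM in MIRI replicate 1 and 4238 CPM in MIRI+AICAR replicate 5, against 741.9 to 1175 CPM in the other libraries. Values without both are given for Fhl2 in the comparisons with MIRI, for Ablim3 between MIRI and Sham, and for Rsu1 and Parvb. They are not given for every value.

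Fhl2 had the largest sum of the 5 genes, 8788 counts over the 16 libraries, or 549.2 per library, which ranked 33rd among all host genes. Its counts were almost all from 1 circle: novel_circ_000420 held 96.28% of them. This circle lies at chr1:43141698-43153254 on the minus strand (GRCm38) and joins exons 2 and 3 of the 6 exons of a GENCODE M21 transcript, 354 bases in all. The second Fhl2 circle, novel_circ_000414 (chr1:43128244-43153254), takes exons 2 to 5. Both begin at the same exon, and 4 circles that use this acceptor site held 99.45% of the Fhl2 counts.

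Pdlim5 (6383 counts, rank 52) and Ablim1 (4313 counts, rank 101) were each spread over several circles. The leading 3 circles held 79.77% of the Pdlim5 counts and 79.97% of the Ablim1 counts, and the first of them 36.32% and 42.8%. Ablim3 (3050 counts, rank 167) was again led by 1 circle, novel_circ_030196, with 80.85%. Lims1 was rare, with 232 counts over all libraries and 2 to 27 in each, and ranked 1787th. No Lims1 circle was counted in every library, against 8 Pdlim5 circles, 6 of Ablim1, 3 of Ablim3 and 2 of Fhl2. Since the smallest count above 0 in the table was 2, a circle listed at 0 could have had 1 read.

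The junctions of leading circles of Fhl2, Pdlim5, Ablim1 and Lims1 show which exon ends are joined. No Ablim3 junction is printed. In each line below the lower-case letters are the last 15 bases of the circle's last exon and the capitals the first 15 bases of its first exon, from GENCODE M21 transcripts on GRCm38, so shared capitals mark a shared acceptor exon and shared lower-case letters a shared donor exon.
Fhl2 novel_circ_000420: aaaccatcatgccagATTGCTGAAAGACAG
Fhl2 novel_circ_000414: ccaaccccattagtgATTGCTGAAAGACAG
Pdlim5 novel_circ_042242: tacgaagaaggcaaaAGCTTCAGCTGCAGC
Pdlim5 novel_circ_042243: tacgaagaaggcaaaCTGAAGGATGGTGGC
Pdlim5 novel_circ_042230: caaccaagttatcagCACCCAGGAGCCTTC
Ablim1 novel_circ_033296: acttccaccgacctgCCCACCAGGACCTCC
Ablim1 novel_circ_033307: ggaaaagtcctggagACTGCGCCGGCTGTG
Ablim1 novel_circ_033314: cctcctgctccagcaTGGCCCATCCTCAGG
Lims1 novel_circ_007293: actcactataatcagTTTGAAGGAAGGAAG

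The pair of Fhl2 junctions share their capital letters, and the first 2 Pdlim5 junctions share their lower-case letters. The Pdlim5 circles novel_circ_042242 (chr3:142303943-142314448) and novel_circ_042243 (chr3:142303943-142352885) both end at exon 7 of a transcript of 13 exons, and 3 circles with this donor site held 54.0% of the Pdlim5 counts. They start at exons 4 and 3. Their listed spliced lengths, 722 and 874 bases, differ from the sums of those exons, 672 and 824 bases, so the exons inside them may differ from this transcript. The other leading circle, novel_circ_042230 (chr3:142259130-142277998, 345 bases), comes from further along the gene and shares neither end with them. It lies on a transcript for which no residues were assigned.

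The Ablim1 circles come from separate stretches of the gene on the minus strand of chromosome 19. The leading circle novel_circ_033296 (chr19:57061253-57068937) takes exons 9 to 12 of 23, 400 bases. The second, novel_circ_033307 (chr19:57132862-57134708), takes exons 5 and 6, 221 bases, and the third, novel_circ_033314 (chr19:57152273-57173459), takes exons 2 to 4, 429 bases. Thus the 3 leading Ablim1 circles share no exon of this transcript. The leading Ablim3 circle (chr18:61839690-61857185, minus strand) takes exons 4 to 8 of 24, 606 bases, and its donor and acceptor sites were used by circles holding 89.8% and 88.95% of the Ablim3 counts. The leading Lims1 circle (chr10:58408070-58414065, plus strand) takes exons 3 to 7 of 11, and 5 circles with its acceptor site held 70.69% of the Lims1 counts.

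The exons inside the circles were set against matches to the spacing of zinc-binding cysteines and histidines of a LIM domain in the encoded proteins. There were 4 matches in FHL2, 3 each in PDLIM5, ABLIM1 and ABLIM3, and 4 in LIMS1. A LIM domain with another spacing would be missed, so the matches need not be all LIM domains of a protein. The leading Fhl2 circle covers residues 1 to 111 of 279 and holds the first match whole and part of the second. It also holds the start codon, 23 untranslated bases before it, and a reading frame that runs 110 codons to the junction and meets a stop codon after 112. No translation was measured. The Ablim3 circle covers residues 51 to 253. It holds the matches at residues 82 to 133 and 151 to 201 whole, and part of the match at residues 23 to 73. The Lims1 circle holds 3 matches whole and part of the other.

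The Pdlim5 circles novel_circ_042242 and novel_circ_042243 differed in this respect. The matches of PDLIM5 lie at residues 415 to 585 of 591, and these circles end at residue 307, so they hold none. No residues were assigned to novel_circ_042230. Its donor site is also that of novel_circ_042232, which ends at residue 423 and so reaches into the first match. The most abundant Ablim1 circle also holds none, while the second holds the third match and the third holds the first 2. A circle from a LIM gene therefore did not always hold a LIM match.

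**Figure D1:**
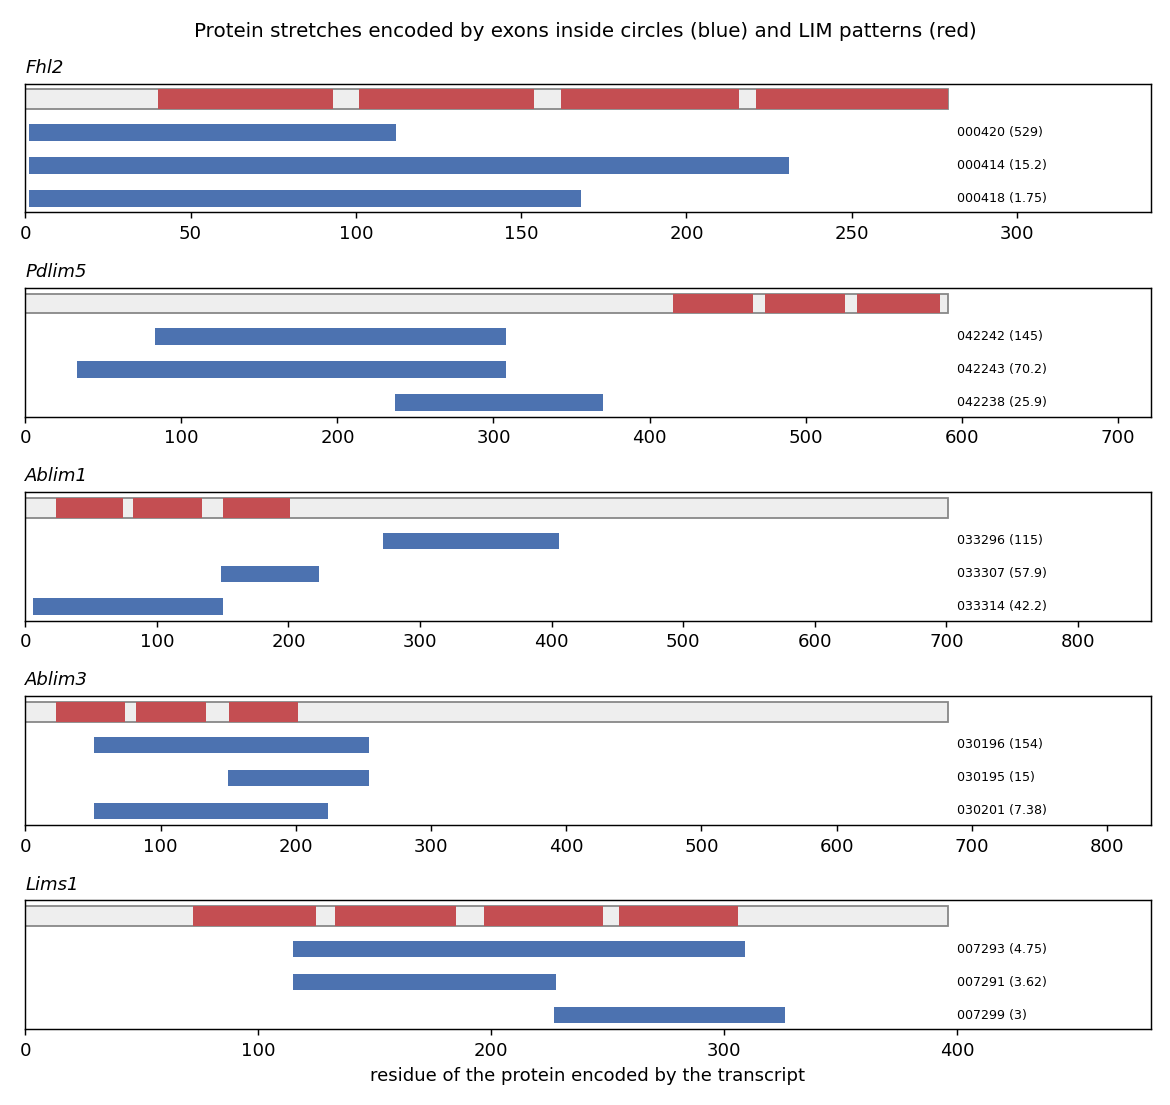
Stretches of each protein, in residues, encoded by the exons of the most abundant circles (blue bars, with the circle's number and its mean count per library in brackets) below the LIM matches (red) on the whole protein (grey). For each gene, the 3 most abundant circles that lie on 1 coding transcript are drawn, so novel_circ_042230 of Pdlim5 is not shown. The Fhl2, Ablim3 and Lims1 circles overlap LIM matches, and the Pdlim5 circles drawn lie before them.

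**Figure D2:**
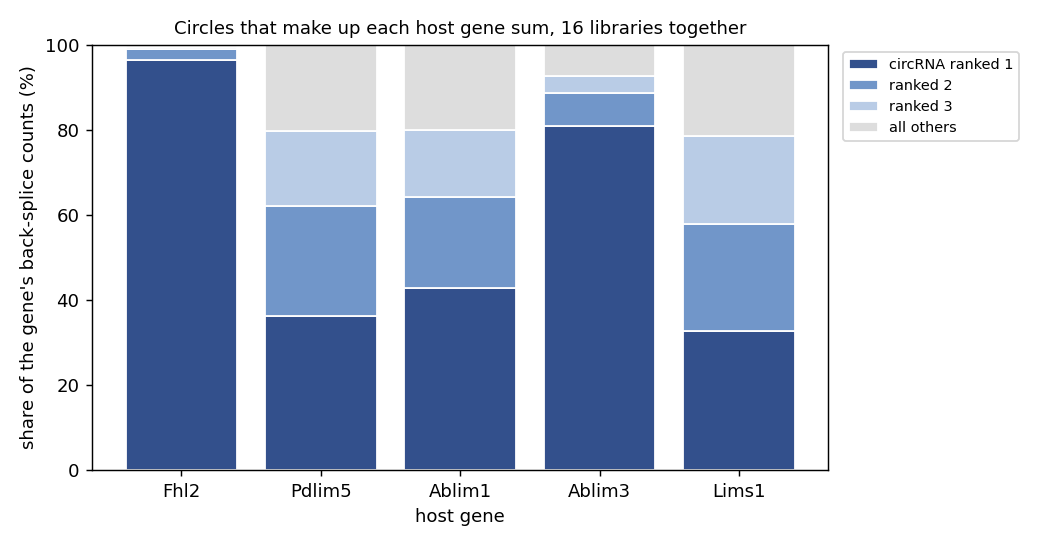
Share of each host gene's back-splice counts, in percent over the 16 libraries together, held by its most abundant circle, the second, the third and all others. The leading circle held 96.28% for Fhl2 and 80.85% for Ablim3, and 32.76% to 42.8% for the other 3 genes.

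Fhl2 circRNAs were lower in MIRI+AICAR than in MIRI+Compound C and Sham hearts. The sums were 4741, 3680 and 4698 CPM in Sham and 2335, 2767 and 3929 CPM in MIRI. They were 3910, 4295, 3837, 3647 and 4635 CPM in MIRI+Compound C, and 2253, 2156, 2540, 2555 and 2452 CPM in MIRI+AICAR. Every MIRI+AICAR library lay below every Sham and every MIRI+Compound C library, and MIRI libraries spanned the gap between them. By mean the order was Sham (4373 ± 601 CPM, SD, n = 3), MIRI+Compound C (4065 ± 396.5, n = 5), MIRI (3010 ± 824.8, n = 3) and MIRI+AICAR (2391 ± 178.2, n = 5), and each neighbouring pair in this order overlapped.

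The log2 difference of Fhl2 between MIRI+AICAR and MIRI+Compound C was -0.76 ± 0.12 (standard error of the edgeR fit, SE), a level 0.589 times as high. It was -0.87 ± 0.13 between MIRI+AICAR and Sham, -0.54 ± 0.15 between MIRI and Sham, and -0.11 ± 0.13 between MIRI+Compound C and Sham, and all injured hearts together gave -0.51 ± 0.11 against Sham. Against MIRI it was -0.33 ± 0.13 for MIRI+AICAR and 0.44 ± 0.14 for MIRI+Compound C. These comparisons share libraries (both treated groups are set against the same 3 MIRI libraries, and MIRI is also set against Sham), so their values are not independent. The 3 MIRI libraries were far apart for Fhl2: without MIRI replicate 3, the highest, MIRI+AICAR against MIRI was -0.09 and MIRI+Compound C against MIRI 0.67, and without both libraries rich in platelet markers the values were -0.48 and 0.29. Without both, MIRI against Sham was -0.39 in place of -0.54.

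The leading circle novel_circ_000420, which held nearly all Fhl2 counts, gave the same picture. Its level was 4661, 3806 and 4830 CPM in Sham, 2429, 2847 and 3925 CPM in MIRI, 3858, 4449, 4082, 3778 and 4769 CPM in MIRI+Compound C, and 2392, 2234, 2721, 2739 and 2661 CPM in MIRI+AICAR. As for the sum, no MIRI+AICAR library reached the lowest MIRI+Compound C or Sham library. Its mean share of the Fhl2 counts was 96.45% ± 0.592 (SD) in Sham and 96.62% ± 0.154 in MIRI hearts, and with injury and treatment 96.18% ± 0.59 for AICAR and 96.08% ± 1.18 for Compound C. The ranges of all groups overlapped. The other Fhl2 circles, summed without it, showed a difference of -0.78 ± 0.24 between MIRI+AICAR and MIRI+Compound C, close to that of the leading circle (-0.71 ± 0.12). The second circle alone, novel_circ_000414, was at 66.12 CPM in MIRI against 131.2 CPM in Sham, and all 3 MIRI libraries lay below all 3 Sham libraries.

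**Figure D3:**
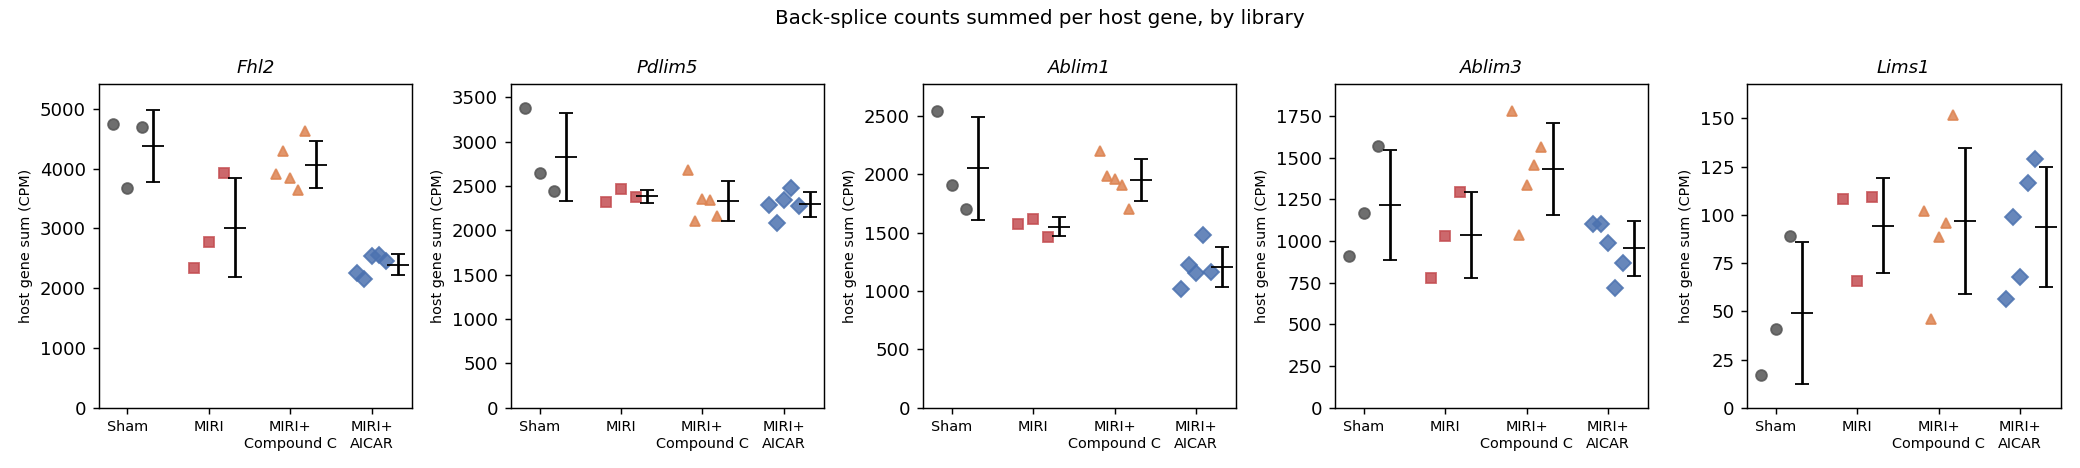
Back-splice counts summed per host gene in each library (CPM, linear axes from 0), with the mean and SD of each group as a bar. The 5 MIRI+AICAR libraries lie between 2156 and 2555 CPM for Fhl2 and between 1014 and 1478 CPM for Ablim1, below all MIRI+Compound C libraries, while Pdlim5 and Lims1 overlap between these groups.

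Ablim1 differed between the treated groups as Fhl2 did. Its sums were 2542, 1904 and 1702 CPM in Sham, 1570, 1617 and 1461 CPM in MIRI, 2196, 1984, 1960, 1905 and 1701 CPM in MIRI+Compound C, and 1014, 1226, 1157, 1478 and 1164 CPM in MIRI+AICAR. All MIRI+AICAR libraries lay below all MIRI+Compound C and all Sham libraries, and all 3 MIRI libraries lay below Sham and below MIRI+Compound C. The log2 difference was -0.69 ± 0.12 between MIRI+AICAR and MIRI+Compound C, -0.76 ± 0.13 between MIRI+AICAR and Sham, -0.40 ± 0.15 between MIRI and Sham, -0.36 ± 0.14 between MIRI+AICAR and MIRI, and 0.33 ± 0.14 between MIRI+Compound C and MIRI. Sham replicate 1 was the highest of all libraries, and without it the difference between MIRI and Sham was -0.22. MIRI+Compound C (1949 ± 177.2 CPM, n = 5) and Sham (2050 ± 438.6, n = 3) overlapped, as did MIRI (1549 ± 79.99, n = 3) and MIRI+AICAR (1208 ± 169.7, n = 5).

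Within Ablim1 the circles did not all differ by the same amount between MIRI+AICAR and MIRI+Compound C. The log2 difference was -0.64 ± 0.16 for novel_circ_033296, with no LIM match, and -0.87 ± 0.22 for novel_circ_033307, with the third LIM match. It was -0.23 ± 0.17 for novel_circ_033314, with the first 2 matches, whose 95% interval reaches past 0. In CPM, novel_circ_033307 stood at 898.7, 415.6 and 378.3 in Sham and 459.6, 300 and 303.3 in MIRI. It stood at 629.2, 491.5, 442.2, 290.1 and 445.5 CPM with Compound C and 205.5, 302.1, 240.5, 260.4 and 239.8 CPM with AICAR. Sham replicate 1 and MIRI+Compound C replicate 1 were high for this circle, and all MIRI+AICAR libraries were below all Sham libraries.

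The level of novel_circ_033314 ranged from 203.8 to 336 CPM over all 16 libraries, and the groups overlapped. Its share of the Ablim1 counts was accordingly larger where the sum was lower: 12.85% ± 1.23 in Sham, 14.37% ± 1.66 in MIRI+Compound C, 17.06% ± 2.64 in MIRI and 19.16% ± 2.79 in MIRI+AICAR. Each MIRI+AICAR library (15.67% to 22.27%) exceeded each MIRI+Compound C library (11.5% to 15.65%), although by little at the boundary. The difference between circles of 1 gene was not tested. Without the leading circle, the Ablim1 sum differed by -0.68 ± 0.13 between the treated groups, so that circle alone did not carry the difference.

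Ablim3 was lower in MIRI+AICAR than in MIRI+Compound C by mean, but with overlap. Its sums were 910.5, 1170 and 1568 CPM in Sham, 778.2, 1030 and 1293 CPM in MIRI, 1780, 1035, 1334, 1455 and 1563 CPM in MIRI+Compound C, and 1104, 1104, 986.2, 719.4 and 869.1 CPM in MIRI+AICAR. MIRI+Compound C replicate 2 (1035 CPM) fell within the MIRI+AICAR range and the other 4 lay above it. The log2 difference was -0.58 ± 0.16 between MIRI+AICAR and MIRI+Compound C, 0.47 ± 0.19 between MIRI+Compound C and MIRI, -0.11 ± 0.19 between MIRI+AICAR and MIRI, and -0.25 ± 0.21 between MIRI and Sham. The third of these turned to 0.08 without MIRI replicate 3 and was -0.26 without MIRI replicate 1. Sham libraries were the most scattered (1216 ± 331.3 CPM, n = 3), and without Sham replicate 3 the value for MIRI against Sham was -0.03. The same comparison gave -0.09 without both libraries rich in platelet markers.

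The leading Ablim3 circle and the rest of the gene's circles are given separately, and the difference between circles was not tested. The share of novel_circ_030196 was 74.42% ± 7.59 in Sham and 77.03% ± 4.88 in MIRI hearts, and with injury and treatment 82.17% ± 5.78 for AICAR and 83.42% ± 2.71 for Compound C. Without it, the log2 difference between MIRI+AICAR and Sham was -0.86 ± 0.22, where the whole sum gave -0.36 ± 0.18 (-0.52 without Sham replicate 1 and -0.13 without Sham replicate 3). In the same sum MIRI+Compound C differed from MIRI by 0.03 ± 0.23, where the whole sum gave 0.47 ± 0.19. Between the treated groups the values were close, -0.49 ± 0.20 without it and -0.55 ± 0.18 for novel_circ_030196 itself. A smaller circle, novel_circ_030204 (exons 4 to 6), lay in every MIRI+AICAR library (23.98 to 37.76 CPM) below every MIRI+Compound C library (49.38 to 87.11 CPM). It is named after its values were seen.

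Pdlim5, by contrast, had similar sums in all 3 injured groups. They were 3384, 2653 and 2448 CPM in Sham, 2321, 2467 and 2376 CPM in MIRI, 2685, 2110, 2353, 2349 and 2163 CPM in MIRI+Compound C, and 2292, 2080, 2346, 2477 and 2275 CPM in MIRI+AICAR. The injured groups overlapped throughout, and Sham replicate 1 stood above all other libraries. The log2 difference between MIRI+AICAR and MIRI+Compound C was -0.02 ± 0.10, with a 95% interval from -0.24 to 0.20, so a difference of the size seen for Fhl2 lies outside this interval. Between all injured groups and Sham it was -0.27 ± 0.10, and without Sham replicate 1 it was -0.12.

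The Pdlim5 circles that pass the count filter did not all differ in 1 direction. Between MIRI+AICAR and MIRI+Compound C the log2 difference was -0.20 ± 0.13 for novel_circ_042242, 0.24 ± 0.16 for novel_circ_042243 and 0.09 ± 0.15 for novel_circ_042230. The first 2 share their donor exon and differ in their acceptor exon. For novel_circ_042242 the share of the gene's counts was 39.6% ± 3.29 with Compound C and 33.56% ± 3.34 with AICAR, and for novel_circ_042243 it was 15.75% ± 2.11 and 18.16% ± 2.08. These shares overlapped between the groups.

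Lims1 was near the limit of detection, and Sham was the lowest group by mean. Its sums were 17.18, 40.81 and 89.25 CPM in Sham, 108.3, 65.87 and 109.1 CPM in MIRI, 102.1, 46, 88.58, 95.52 and 151.5 CPM in MIRI+Compound C, and 56.32, 98.79, 67.55, 116.3 and 128.8 CPM in MIRI+AICAR. The lowest Sham value rests on 2 counts. The log2 difference between all injured groups and Sham was 0.87 ± 0.40, with a 95% interval from -0.01 to 1.75, which is wider than the F test of the same fit implies. It was 1.61 without Sham replicate 3 and 0.52 without Sham replicate 1. The 3 injured groups differed from each other by at most 0.04 on this scale, with standard errors of 0.33 to 0.40. The 95% interval was -0.76 to 0.70 between MIRI+AICAR and MIRI+Compound C. Against MIRI it was -0.84 to 0.86 for MIRI+AICAR and -0.84 to 0.91 for MIRI+Compound C. Differences within these intervals were not resolved at this depth.

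**Figure D4:**
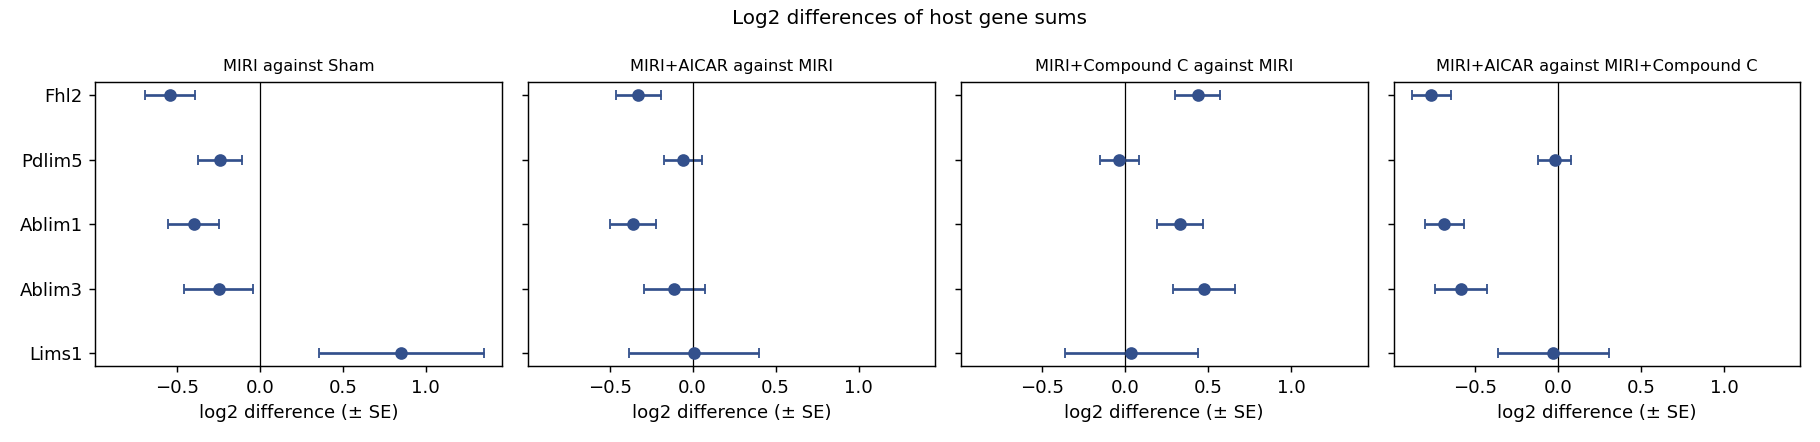
Log2 differences of the host gene sums between groups, with 1 SE on each side, for 4 comparisons. Between MIRI+AICAR and MIRI+Compound C, Fhl2 (-0.76), Ablim1 (-0.69) and Ablim3 (-0.58) lie below 0 while Pdlim5 (-0.02) and Lims1 (-0.03) lie close to it, and Fhl2, Ablim1 and Ablim3 lie above 0 for MIRI+Compound C against MIRI.

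Calls over all circRNAs or all host genes were made with the edgeR quasi-likelihood F test, at 0.05 after Benjamini-Hochberg adjustment of p. Between MIRI+AICAR and MIRI+Compound C, 3 of the 5 genes were called lower (Fhl2, Ablim1 and Ablim3), where 1.03% of 3699 host genes were called lower. Between MIRI+AICAR and Sham, 2 were called lower (Fhl2 and Ablim1; background 0.811%), and between all injured groups and Sham, 1 was (Fhl2; background 0.189%). As the genes were chosen with these values in view, nothing is read from the counts. The Fhl2 and Ablim1 calls between the treated groups held in all 18 alternative analyses and the Ablim3 call in 8. The losses for Ablim3 included, but were not confined to, leaving out any single library of those groups but MIRI+Compound C replicate 2. These alternatives do not include the sums without each gene's leading circle, in which the Fhl2 and Ablim3 calls were lost and the Ablim1 call was kept. In those sums the Fhl2 call against Sham was also lost, the Ablim1 call held, and Ablim3 was called lower in MIRI+AICAR than in Sham. The call of Fhl2 against Sham over all injured groups held in 12 of 23.

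In edgeR none of the 5 was called between MIRI and Sham (background 0.162% in either direction), between AICAR-treated and untreated injury (0.027%), between Compound C-treated and untreated injury (0.595%) or between MIRI+Compound C and Sham (0.027%). At an unadjusted p under 0.05 the counts were 2, 2, 3 and 1 of 5, where the shares of all 3699 host genes were 9.03%, 6.76%, 9% and 6.38%, and with DESeq2 the first 3 comparisons gave 1, 0 and 0. Of the 131 member circRNAs, 26 passed the count filter. Of these, novel_circ_000420 was called lower in MIRI+AICAR than in MIRI+Compound C (1 circRNA; 0.303% of 7917 circRNAs were called lower), and both it and novel_circ_033307 were called lower than in Sham (2 circRNAs; 0.227%). The second of these calls held in 10 of 16 alternatives and the first in 16, and without Sham replicate 1 the difference of novel_circ_033307 from Sham was -0.66 in place of -1.16. None was called between MIRI and Sham (0.0253% of circRNAs called in either direction), AICAR-treated and untreated injury (0.0253%), Compound C-treated and untreated injury (0.0884%) or all injured hearts and Sham (0.0379%), with 5, 1, 3 and 6 of 26 at an unadjusted p under 0.05 (6.82%, 4.9%, 6.47% and 7.38% of all circRNAs) and 0, 0, 0 and 1 called by DESeq2. Among the 26, the difference between the treated groups was negative for 17, with a median of -0.22 against 0.03 over all circRNAs tested. The genes were chosen with these differences in view and circles of 1 gene share their libraries, so nothing is read from this count or median.

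**Figure D5:**
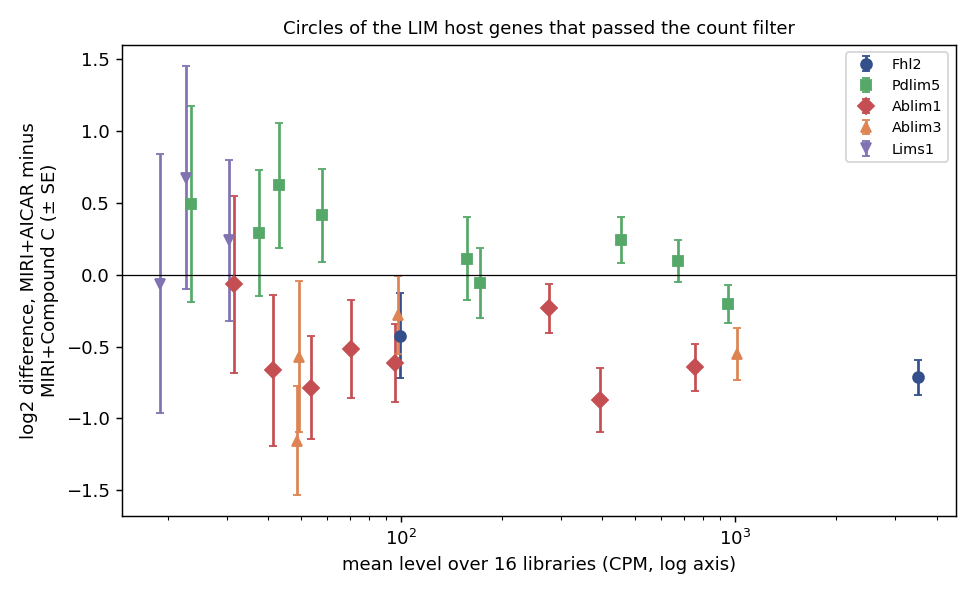
Log2 difference between MIRI+AICAR and MIRI+Compound C of the 26 circles that passed the count filter, with 1 SE on each side, against their mean level over 16 libraries (CPM, log axis). All Fhl2, Ablim1 and Ablim3 circles lie below 0, the largest being novel_circ_000420 at 3511 CPM, while the Pdlim5 circles lie on both sides of 0.

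Markers of cell types differed between the same groups. The cardiac muscle sum was 13400 to 17710 CPM in MIRI+AICAR and 16000 to 22010 CPM in MIRI+Compound C, and 17480 to 21600 CPM in Sham. The leukocyte list (6 of 8 measured, Csf1r at 0 throughout) summed to 2540 to 3305 CPM in MIRI+AICAR against 1875 to 2486 CPM in MIRI+Compound C and 1366 to 2108 CPM in Sham. The fibroblast and matrix list (7 of 9 measured, Postn at 0 throughout) summed to 1009 to 1212 CPM in MIRI+AICAR and 773.3 to 1006 CPM in MIRI+Compound C, and the endothelial list (7 of 9 measured) to 2141 to 2999 and 3099 to 4530 CPM. The smooth muscle and pericyte list (3 of 6 measured, Acta2 and Pdgfrb at 0 throughout) summed to 906.7 to 1424 and 1428 to 1641 CPM, and the Schwann and neural list (2 of 4 measured) to 56.32 to 156.9 and 102.1 to 172.2 CPM. The platelet list summed to 1019 to 4238 CPM in MIRI+AICAR and 741.9 to 972.1 CPM in MIRI+Compound C, so these groups did not overlap. In whole tissue, fewer cells of a type and less RNA per cell cannot be told apart, and the part of these shifts in the results was not tested.

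Set against the cardiac muscle sum of the same library, the differences of Fhl2, Ablim1 and Ablim3 between MIRI+AICAR and MIRI+Compound C were smaller and those of Pdlim5 and Lims1 larger. Per 1000 CPM of cardiac markers, Fhl2 was at 155.4 ± 16.6 CPM in MIRI+AICAR (134.5 to 175) and 210.6 ± 24.6 in MIRI+Compound C (185.9 to 244.4), a log2 ratio of -0.439, and the groups still did not overlap. For Ablim1 the log2 ratio was -0.39, with a highest MIRI+AICAR value of 83.46 just under the lowest MIRI+Compound C value of 83.67. For Ablim3 the ratio was -0.27 and the groups overlapped. For Pdlim5 the ratio turned positive, 0.285, with overlapping groups, and for Lims1 it was 0.252. Between MIRI+AICAR and Sham the scaled log2 ratio was -0.539 for Fhl2, again without overlap (Sham 210.5 to 249.3). For Ablim1 it was -0.46, and here the groups overlapped (70.63 to 83.46 against 78.8 to 133.6 in Sham). Pdlim5, Ablim3 and Lims1 gave 0.0154, 0.00826 and 1.3. Between MIRI and Sham the 5 genes gave -0.309 (Fhl2), -0.146 (Ablim1), 0.00704 (Pdlim5), 0.00062 (Ablim3) and 1.28 (Lims1).

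The genes varied together to different degrees over the 16 libraries. Fhl2 and Ablim1 had the highest Pearson correlation of log2 CPM among the 5 (r = 0.79), followed by Fhl2 and Ablim3 (0.60) and Pdlim5 and Ablim1 (0.58), while Pdlim5 and Lims1 gave -0.62. Among the 2406 host genes with a mean of at least 50 CPM, those most like Fhl2 were Tmeff1 (0.87), Ddx60 (0.87) and Cpeb3 (0.85), and those most like Ablim1 were Xdh (0.91), which encodes xanthine dehydrogenase, Dnm3 (0.91) and Ptprg (0.90). Tmem38a, for an intracellular cation channel of muscle reticulum, was most like Ablim3 (0.85), followed by Ttll3 (0.81) and Taok2 (0.80). For Pdlim5 they were Tmem50a (0.79), Dcbld1 (0.78) and Tasp1 (0.77), and for Lims1 Cnot6l (0.80), Rab31 (0.78) and Ctif (0.77). All points share their libraries and depth, and no p is given.

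Other genes for LIM proteins were taken from a list of 54, of which 15 had circRNAs abundant enough to test. None was called, either in edgeR or in DESeq2, for injury against Sham, for AICAR or Compound C against untreated injury, for the treated groups against each other, or for all injured hearts against Sham. At an unadjusted p under 0.05 in edgeR the counts in this order were 1, 1, 0, 2 and 1 of 15. Over all 3699 host genes the shares at that p were 9.03%, 6.76%, 9%, 11.9% and 9.25%, and the shares called in either direction 0.162%, 0.027%, 0.595%, 1.95% and 0.27%. Between the treated groups their median log2 difference was 0.06, against 0.02 over all host genes, with 9 of 15 positive.

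The most abundant of these was Trip6, a zyxin-family LIM protein of focal adhesions, with 779.9 ± 46.2 CPM in Sham and 916 ± 198.2 CPM in MIRI hearts, and 966.9 ± 97.4 CPM with AICAR and 757.2 ± 45.4 CPM with Compound C. Every MIRI+AICAR library (835.8 to 1049 CPM) exceeded every MIRI+Compound C library (713 to 809.8 CPM), opposite to Fhl2, but the gene was not called (log2 difference 0.35 ± 0.12, edgeR adjusted p = 0.164). Mical2, an actin-oxidising LIM enzyme, gave 0.72 ± 0.30 in the same comparison (adjusted p = 0.3 in edgeR; 1.10 without MIRI+Compound C replicate 3) and Lmo7 0.01 ± 0.23. Pdlim1, a relative of Pdlim5 that also binds α-actinin, was at 278.5 ± 43.4 CPM in MIRI+AICAR and 278.3 ± 59.4 CPM in MIRI+Compound C. Lpp and Micall1 gave 0.25 ± 0.18 and 0.10 ± 0.19.

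Between MIRI and Sham, the other LIM genes with the smallest p were Wtip and Lpp, adaptors of cell junctions. Against MIRI they were Limk1, a kinase that controls actin turnover, and Micall1 for MIRI+AICAR, and Wtip and Trip6 for MIRI+Compound C. Micall1 stood at 340.9 ± 62.1 CPM in MIRI+AICAR and 268.4 ± 80.4 CPM in MIRI, with overlap. Wtip was at 179.6 ± 68.4 CPM in MIRI and 273.1 ± 44.1 CPM in Sham, with every MIRI library below every Sham library (-0.58 ± 0.27, edgeR adjusted p = 0.525; -0.33 without MIRI replicate 3). Lpp gave -0.48 ± 0.24 between MIRI and Sham (adjusted p = 0.575 in edgeR; -0.21 without Sham replicate 1). Limk1 was at 67.26 ± 30.2 CPM in MIRI+AICAR against 118.2 ± 16.8 CPM in MIRI, with no overlap (-0.78 ± 0.35, edgeR adjusted p = 0.705).

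Genes for proteins that work beside these 5 at adhesions and the Z-disc were taken from a list of 33, of which 18 were measured. Only Ttn was called, lower in MIRI+AICAR than in MIRI+Compound C (7590 ± 1044 against 10190 ± 999.2 CPM, log2 difference -0.42 ± 0.11, edgeR adjusted p = 0.0452), where 2 of 18 had an unadjusted p under 0.05 (11.9% of all host genes did). Ttn encodes titin, the sarcomere spring that FHL2 binds, and is also the largest part of the cardiac marker sum. The Ttn call held in 10 of 18 alternative analyses. Mypn, a titin- and α-actinin-binding Z-disc gene, gave -0.32 ± 0.13 (adjusted p = 0.286 in edgeR), and the median of the 18 was 0.23 against 0.02 over all host genes.

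No gene of the list was called in the other 4 comparisons in edgeR or DESeq2. Of the partners of LIMS1, Parva, Parvb and Rsu1 were measured, while Ilk, for integrin-linked kinase, and Parvg were not. The counts at an unadjusted p under 0.05 in edgeR were 3 for MIRI against Sham, 5 and 4 for AICAR and Compound C against untreated injury, and 2 for all injured hearts against Sham, each of 18. The shares of all host genes at that p were 9.03%, 6.76%, 9% and 9.25%. Rsu1, which binds PINCH1, was at 278.5 ± 75.7 CPM in Sham, and in MIRI it had a median of 302.3 CPM and a highest value of 2781 CPM. The parvin gene Parvb had a MIRI median of 117.5 CPM and a highest value of 1076 CPM. Both high values came from MIRI replicate 1, the library richest in platelet markers, and without it the MIRI against Sham log2 difference turned from 2.01 to -0.073 for Rsu1 and from 1.36 to -0.76 for Parvb. Lims1 itself was at 108.3 CPM in that library and at 109.1 CPM in MIRI replicate 3, and so did not stand out there. Actn2, for the α-actinin of the cardiac Z-disc, was low (109.9 ± 69.8 CPM in Sham and 57.12 CPM over the injured groups, -0.93 ± 0.44, edgeR adjusted p = 0.498). Without Sham replicate 1 its difference was -0.42, and without Sham replicate 2 it was -1.34.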

How the data were processed

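Per the labels' protocols, total heart RNA was freed of ribosomal RNA, treated with RNase R against linear RNA and made into dUTP-marked (stranded) libraries. The authors' deposited table holds back-splice counts from CIRI, per the file header, without further normalisation; the CIRI version is not given in the sources used here. Per the submitters' processing notes the build was mm9, but 88.9% of the starts and 88.8% of the ends of 50032 exonic circRNAs lie on GENCODE M21 (GRCm38) exon boundaries, against 0.35% and 0.31% after a shift of 1 base, so coordinates are given on GRCm38. Counting reads over a junction does not separate isoforms that share it.

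Tests used edgeR 4.0.16 in R 4.3.3 (filterByExpr, minimum count 5 and minimum total 15, TMM scaling, quasi-likelihood F test, 1 fit of the 4 groups over 16 libraries, two-sided, Benjamini-Hochberg adjustment over 7917 circRNAs or 3699 host gene sums); DESeq2 1.42.0 was an alternative. Python 3.11.15 and matplotlib 3.10.9 drew the figures. Scripts were tested on simulated data for MIRI against Sham, with changes set in features above the median level. Of those given a 2-fold change, 18% of circRNAs and 57% of host genes were called, and at 4-fold 95% and 100%. A feature that was not called may therefore still differ. The members, lists and tests were chosen with earlier results of these data known. Named members are the gene sums, the 3 most abundant circles of each gene and any called; of the lists, those called, the 2 with the smallest p per comparison and the 5 most abundant other LIM genes. Precision is limited by depth, 119948 to 240889 counts per library.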

Additional observations from a re-analysis of the deposited data

How the results depend on the processing

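Alternatives were RLE and total-count scaling, no count filter, a minimum count of 10, DESeq2, the replicate number as a block, only the groups compared, sums without each gene's leading circle, each library left out, and both libraries rich in platelet markers left out. Of 2609 values recomputed, 73 moved by more than their spread and 105 changed sign, 92 of them with a reported value within 0.3 of 0. Of the 630 values of the 5 genes' sums, 25 changed sign, none of them a called difference; the farthest for Lims1 was -0.31 with the replicate block, and without the leading circle Ablim3 in MIRI+Compound C against Sham turned from 0.23 to -0.37. Without both platelet-rich libraries, or without MIRI replicate 1 alone, MIRI against Sham gave -0.06 and -0.073 for Rsu1 and -0.74 and -0.76 for Parvb; MIRI+Compound C against MIRI gave 0.27 and 0.27 for Rsu1 and 0.30 and 0.30 for Parvb; and MIRI+AICAR against MIRI gave 0.58 for Parvb without MIRI replicate 1. With a library left out, MIRI against Sham ran from -0.073 to 2.49 for Rsu1 and from -0.76 to 1.87 for Parvb, Compound C-treated against untreated injury from -2.29 to 0.27 for Rsu1 and from -2.32 to 0.30 for Parvb, and AICAR-treated against untreated injury from -2.41 to 0.58 for Parvb.

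Counts of called member circRNAs between MIRI+AICAR and MIRI+Compound C were 1 as reported, 4 with no filter, 3 with DESeq2, 2 with the replicate block, 3 with only those groups, and 1 to 2 with a library left out. With no filter they were 1 for MIRI against Sham, 2 for MIRI+Compound C against MIRI and 1 for all injured groups against Sham, which DESeq2 also gave as 1; each was 0 as reported. Called member genes were 0 as reported for MIRI against Sham, 1 with no filter, 1 with DESeq2 and 0 to 1 with a library left out; for MIRI+Compound C against MIRI they were 0 as reported, 1 with no filter and 0 to 1 with a library left out; for injured groups against Sham they were 1 as reported and 0 to 1 with a library left out. Called partners were 0 as reported for MIRI against Sham, 2 with no filter and 0 to 1 with a library left out. For AICAR-treated against untreated injury they were 0, 2 and 0 to 1 in the same order, and for Compound C-treated against untreated injury 0, 2 and 0 to 2. Between the treated groups they were 1, 2 and 0 to 1, and 2 with only those groups, and for injured groups against Sham 1 with no filter. The cause was not tested. The 20 pairs of libraries with the same number in different groups gave correlations of -0.02 to 0.06 between their deviations from the group means. The 74 pairs with other numbers gave -0.04 to 0.04. Taken over many low counts, these correlations cannot decide whether libraries of the same number were handled together. The replicate block gave 3 called member genes between the treated groups, as reported, and changed no other count of member genes or lists. Depth limits Lims1 most, with 2 to 27 counts per library.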
